A study of Mus musculus with 24 samples.

Results

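The 83 genes described here encode the proteins of the cytosolic ribosome in mouse. They were chosen by name from the 53379 genes of the deposited RNA tables: protein-coding genes whose symbol is Rpl or Rps followed by a number and an optional letter or digit, together with Rpsa, Rplp0, Rplp1 and Rplp2, and without symbols marked as pseudogenes. The large subunit contributed 51 members and the small subunit 32. Of the 83, 6 are copies of another member (Rpl3l, Rpl7l1, Rpl10l, Rpl22l1, Rpl39l and Rps27l). The rule reads names and gene types only, and every member had counts in all libraries and passed the filter on low counts.

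The cytosolic ribosome joins ribosomal RNA with about one copy of each ribosomal protein, and the large subunit carries the stalk, formed by RPLP0 with RPLP1 and RPLP2, that recruits elongation factors. The genes lie scattered over the genome, yet their mRNAs are among the most abundant of a growing cell. Most begin with a run of pyrimidines, the terminal oligopyrimidine (TOP) tract, through which LARP1 and the kinase complex mTORC1 set their translation and stability. Pluripotent stem cells divide fast and are known for a distinctive, tightly held rate of protein synthesis that changes as they differentiate.

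RNA was measured in 5 groups of 2 libraries, all from the mouse embryonic stem cell line E14Tg2a.IV. The day 0 group is wild-type (WT) stem cells. The other 4 groups are day 4 embryoid bodies, aggregates that form in medium without the self-renewal factor LIF, made from WT cells and from cells of genotype Smad3-/-, Smad2-/- and Smad2/3DKO, which lack one or both of the nuclear carriers of Nodal and Activin signals. Whether a group's libraries come from different cultures is not stated in the labels, so each p-value reflects library-to-library spread, which may be technical. File names give both libraries of each knockout 1 line number, so a knockout and its line cannot be told apart.

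Libraries held 35733249 to 53672980 expected counts, which are read counts that the quantifier shares among genes where reads fit several. Smad2 was lower than WT in the Smad2 knockout (log2 fold change -1.16, adjusted p = 0.00245, edgeR). Smad3 stood at 0.18 (adjusted p = 0.608) in the library pair labelled Smad3 knockout, which the counts therefore do not set apart from WT at that gene. Smad3 was lower than WT in the pair labelled Smad2 knockout (-0.49, adjusted p = 0.040). In the double knockout Smad2 (-0.98, adjusted p = 0.0047) and Smad3 (-0.69, adjusted p = 0.0136) were both lower. Smad2 kept 19.2 and 21.5 TPM there, against 6.82 and 7.07 TPM in the Smad2 knockout and 32.9 and 25.7 TPM in WT at day 4. Markers of naive stem cells summed to 405 to 549 TPM (a level scaled for transcript length and library total) at day 0 and to 97.3 to 105 TPM in WT at day 4, while primitive streak markers rose from 1.17 to 1.67 TPM to 216 to 228 TPM. Trophoblast markers summed to 20.7 to 24.8 TPM for WT day 4, 180 to 304 TPM for the Smad2 and 952 to 1238 TPM for the double knockout. Fibroblast markers, which feeder cells would carry, summed to 13.35 to 28.6 TPM over all libraries. The sum hides changes of single markers. In the Smad2 knockout against WT at day 4, Col3a1 (4.36), Col1a2 (2.93) and Col1a1 (2.63) were called higher and Thy1 (-0.87) lower, of 5 markers. Over all genes 15.4% were called higher and 20.1% lower in that comparison. The file names fall into 2 series, called submissions here. They divide the 2 libraries of every group except the double knockout, whose libraries both belong to the first.

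Pyrimidine tracts were sought near the start of the members, because a shared tract is what ties these mRNAs together in translation. A run of at least 8 C or T letters on the sense strand, between 20 bases before and 50 bases after the annotated start, was found for 48 of the 63 members with a promoter entry (76.2%). Among 26962 other genes the same search found one for 28.4%. The longest run had a median of 10 bases in the members and 6 bases in the other genes. The windows below, from RefSeq (GRCm38.p6), are 30 bases long and centred on the longest run inside that search range, which is in capitals. Where a window reaches past the range, as in Rpl7l1, longer runs outside it are in lower case. They cover members on which the results turn, by role.
Rpl11 (chr4:136053358-136053387, minus strand): ccggaagTCTCCCTCTCTCTTCCTgttctc
Rpl13a (chr7:45128722-45128751, minus strand): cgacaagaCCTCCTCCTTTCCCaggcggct
Rps15 (chr10:80292446-80292475, plus strand): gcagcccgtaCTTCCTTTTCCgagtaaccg
Rplp2 (chr7:141447636-141447665, plus strand): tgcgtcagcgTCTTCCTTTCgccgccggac
Rplp0 (chr5:115559466-115559495, plus strand): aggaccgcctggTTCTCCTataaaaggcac
Rpsa (chr9:120127774-120127803, plus strand): tccggccgcccgTCCTTTCgcgctacccgg
Rpl5 (chr5:107900497-107900526, plus strand): gcctacagccaCTCTTTCTCacgtcgcttg
Rpl10l (chr12:66284395-66284424, minus strand): aacagaaatttggCCTCCattttgcggctg
Rpl39l (chr16:10170209-10170238, plus strand): ctagctcccaggCCTTTCCggatttccggt
Rpl7l1 (chr17:46782660-46782689, minus strand): gcctctctaccccgCCCggtgaggctgcgc
Rpl22l1 (chr3:28805499-28805528, plus strand): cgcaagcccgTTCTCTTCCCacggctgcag
Rps27l (chr9:66946063-66946092, plus strand): actcctctccaCTCCTCCCCgccgcctcta

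The run reached 17 bases in Rpl11 and 14 in Rpl13a. The copies Rpl10l, Rpl39l and Rpl7l1 had runs of 5, 7 and 3 bases, below the limit of 8, as did Rplp0 and Rpsa with 7 bases each and the parent Rpl22 with 5. The copies Rpl22l1 and Rps27l had 10 and 9. A run is a match of letters in this window, and its place can differ from the first base of the mRNA in these cells. In Rpl13a it began 2 bases after the annotated start, in Rplp2 5 bases before it, and in Rpsa 20 bases after it.

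Together the 83 genes took a large and variable part of each library. Their share of expected counts was 16.8 and 12.5% in the WT stem cell libraries and 5.96 and 7.36% in WT embryoid bodies. Smad3 knockout libraries gave 8.35 and 8.33%, those of the Smad2 knockout 14.4 and 13.6%, and those of the double knockout 7.01 and 6.38%. The stem cell and Smad2 knockout libraries were thus all above 12%, and the other 6 libraries all below 9%, with no overlap.

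**Figure D1:**
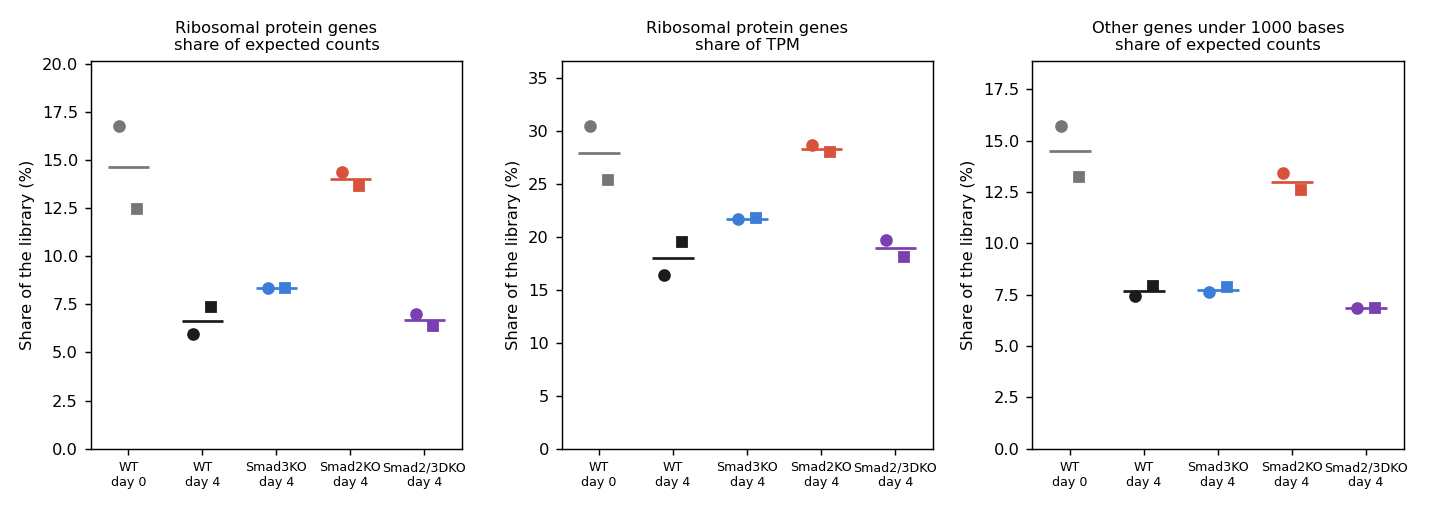
Share of each library taken by the 83 ribosomal protein genes in expected counts (left) and in TPM (middle), and by all other genes under 1000 bases in expected counts (right), in percent. Circles are replicate 1, squares replicate 2, lines the mean of 2; day 0 and Smad2 knockout libraries lie above the rest in all panels, from 12.5 to 16.8% against 5.96 to 8.35% on the left.

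The group means were 14.6 ± 3.06% (SD, n = 2) at day 0, and at day 4 6.66 ± 0.987% for WT, 8.34 ± 0.0135% for the Smad3 knockout, 14.0 ± 0.511% for Smad2 and 6.70 ± 0.444% for the double knockout. WT day 4 minus day 0 was -7.96 percentage points, and the Smad2 knockout minus WT was 7.35 points. With 2 libraries against 2, an exact permutation test cannot give a two-sided p below 0.333, so the shares are given as a description, with no test. In TPM, which divides by transcript length, day 0 and the Smad2 knockout again lay above the other groups. The Smad2 knockout mean (28.3%) was above that of day 0 (27.9%). The length used allows for fragment size, implied to be 170 to 178.5 bases in the first submission and 197 to 239 bases in the second. What this does to the TPM of short genes was not tested. The members made up 30.5 and 25.4% of TPM at day 0, 16.4 and 19.5% in WT, 21.7 and 21.7% with Smad3 labelled as lost, 28.6 and 27.98% with Smad2 lost and 19.7 and 18.1% with both lost.

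Other short genes moved in the same direction. Genes outside the members with a transcript length under 1000 bases took 15.7 and 13.2% of counts at day 0, 7.42 and 7.93% in WT at day 4, 13.4 and 12.6% in the Smad2 knockout and 6.83 to 7.86% in the remaining libraries. The median length of the members was 673 bases. An offset for transcript length, fitted over all genes tested, was applied in each comparison. It takes out whatever genes of like length share in a library, differences between groups included. It therefore does not measure the part of length in the members' differences. Whether length stands for the RNA, its fragmentation or the cells was not tested. In bulk RNA, fewer cells of a type and less RNA per cell cannot be told apart.

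Among themselves the members kept a stable balance between subunits. Small-subunit genes held 43.8 to 47.1% of the members' summed TPM in all 10 libraries. The copies held 0.64 to 0.9% in 9 libraries and 1.35% in replicate 1 of WT at day 4. Mean levels over the 10 libraries ran from 1.45 TPM for Rpl3l, the muscle form of Rpl3, to 7415 TPM for Rps24, a small-subunit protein needed to process the precursor of 18S rRNA. Behind Rps24 came Rpl13a, known also from a complex that silences inflammatory mRNAs, with 6364 TPM, and Rps27, a zinc-finger protein of the small subunit, with 6093 TPM. In all, 68 members averaged at least 1000 TPM and 5 stood under 100 TPM: Rpl3l, Rpl10l, Rpl39l, Rpl7l1 and Rpl5.

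Reads that fit a gene and its processed copies are divided by the quantifier, which makes single levels uncertain for some members. Copies named after the member (symbols ending in -ps and a number) existed for 60 of the 83. They held over 20% of the combined counts for 13 members, with 88.8% for Rpl27, 75.2% for Rps13 and 45.2% for Rps12. For Rps12 the copies' share ran from 5.67% in one WT day 4 library to 73.0% in one Smad2 knockout library. All copies of that kind together took 0.724 to 1.83% of a library. Rpl5, which carries 5S rRNA into the large subunit together with RPL11, had 67.4 to 127 TPM, while Rpl11 had 897 to 2116 TPM. Its 2 named copies held only 3.08% of the combined counts, and copies under other names were not assigned to it.

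The comparison of WT embryoid bodies with stem cells asks how the genes change as pluripotent cells differentiate. On counts, 80 of 83 members fell and none rose, with a median log2 fold change of -1.46 (edgeR quasi-likelihood test, adjusted p under 0.05). Over all 19470 genes tested, 52.1% were called in either direction, 28.9% higher and 23.2% lower, and the median was 0.10. Other genes under 1000 bases had a median of -1.06, with 1252 of 2811 lower and 222 higher. The largest falls were in Rpl10l, Rpl39l and Rpl36, and the 3 members not called were Rpl39, Rpl22l1 and Rpl5.

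**Figure D2:**
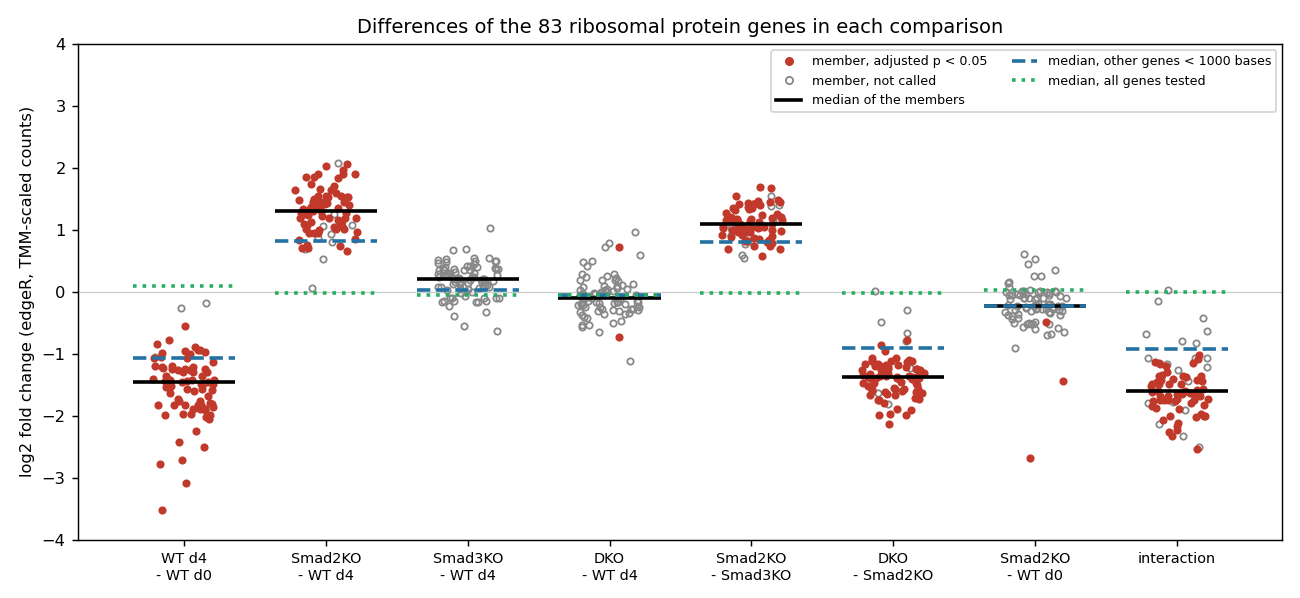
log2 fold change of each of the 83 members (points, filled where adjusted p is under 0.05) in 8 comparisons, with the medians of the members, of other genes under 1000 bases and of all genes tested. The members' median was -1.46 for WT day 4 against day 0, 1.30 for the Smad2 knockout against WT and -0.09 for the double knockout against WT.

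Rpl10l, an intronless copy of Rpl10 known from male germ cells (chromosome 12), stood at 98.2 and 97.5 TPM in stem cells. In WT embryoid bodies it stood at 13.1 and 17.7 TPM, and in the 6 knockout libraries at 13.7 to 23.4 TPM. All 8 day 4 libraries lay far below both stem cell libraries. The log2 fold change in WT was -3.52 (SE 0.31, adjusted p = 5.67e-05, edgeR).

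Rpl39l, the copy of Rpl39 also known from male germ cells and stem cells, gave 116 and 98.7 TPM at day 0 and 27.5 and 19.98 TPM in WT at day 4. The groups did not overlap, and the log2 fold change was -3.09 (SE 0.31, adjusted p = 9.93e-05, edgeR). Its parent Rpl39, a small protein of the exit tunnel, stood at 1896 and 1243 TPM at day 0 and 1898 and 969 TPM at day 4, with overlapping groups. The parent's difference on counts was -1.05 (adjusted p = 0.0663), which did not pass.

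Rpl3l gave 1.97 and 2.64 TPM at day 0 and 0.55 and 0.77 TPM at day 4 (log2 fold change -2.71, adjusted p = 0.00048, edgeR), at levels so low that few reads carry it. Its parent Rpl3, which lies near the peptidyl transferase centre, went from 2177 and 2063 TPM to 1646 and 1838 TPM (-1.14, adjusted p = 0.00191). Rpl22l1, the paired copy of Rpl22, held 695 and 480 TPM at day 0 and 1217 and 615 TPM at day 4, so its groups overlapped in TPM. On counts its difference was -0.26 (adjusted p = 0.612), and its parent Rpl22 fell by 1.25 on the log2 scale (adjusted p = 0.00368). Rpl7l1, a nucleolar relative of Rpl7 that acts in ribosome assembly, was lower on counts (-0.54, adjusted p = 0.0128) and higher in TPM, where it went from 85.9 and 99.6 to 120 and 107. Rpl7 fell by 0.77 (adjusted p = 0.0118) on counts, with 2844 and 3135 TPM before and 3487 and 3018 TPM after. Rps27l, a copy of Rps27 known as a p53 target, fell by 1.29 (adjusted p = 0.00271), from 1078 and 846 TPM to 834 and 644 TPM, and Rps27 fell by 1.49 (adjusted p = 0.0118).

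The stalk genes differed between the WT embryoid body libraries. Rplp1 stood at 10071 and 8313 TPM in stem cells and at 861 and 5304 TPM in WT embryoid bodies, so replicate 1 was far below replicate 2. Rplp2 showed the same split, with 5722 and 5458 TPM against 1036 and 3596 TPM. Rplp0 had 1933 and 2053 TPM at day 0 and 882 and 2204 TPM at day 4, which overlapped. On counts all 3 were called lower, at -2.50 for Rplp1, -2.25 for Rplp2 and -1.22 for Rplp0 (adjusted p = 0.0118, 0.0107 and 0.0227). None of the 3 was called with the length offset, with length and GC, or without replicate 1 of day 0.

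Rpsa, which is also the laminin receptor precursor, gave 5765 and 5394 TPM at day 0 and 2918 and 4362 TPM at day 4. The groups did not overlap and the log2 fold change was -1.49 (SE 0.27, adjusted p = 0.0017, edgeR). Rpl11, the partner of RPL5 that also binds MDM2, fell by 1.59 (adjusted p = 0.0011), from 2116 and 1927 TPM to 897 and 1481 TPM. Rpl5 did not pass on counts (-0.18, adjusted p = 0.623) and stood at 83.5 and 67.4 TPM before and 127 and 77.0 TPM after. Of the most abundant members, Rps24 fell by 1.37 (adjusted p = 0.00534) and Rpl13a by 1.90 (adjusted p = 0.000832). Rpl13a went from 9412 and 8219 TPM to 3498 and 4472 TPM, without overlap, whereas Rps24 overlapped at 10250 and 7479 TPM against 7935 and 5048 TPM. All 7 members with known mouse developmental mutants (Rpl38 and Rps19 among them) were called lower. So were 13 of the 14 linked to Diamond-Blackfan anaemia, an inherited failure of red cell production. Over all members it was 80 of 83, so neither list stood apart from the set.

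Replicate 1 of WT at day 4 stood apart in how it measured GC-rich members. The log2 difference between replicate 1 and replicate 2 fell with transcript GC content, with a Spearman coefficient of -0.71 over the 83 members and -0.81 over 14229 other genes, which share library and depth. Members above the median GC had a median difference of -0.63, and those below it 0.22. For stem cells, Smad2 and double knockout the same coefficient over members was -0.25, -0.14 and 0.22, and in the Smad3 knockout -0.54. Rpl36, a large-subunit member with the highest GC content (60.8%), had 360 TPM in replicate 1 and 2995 TPM in replicate 2, against 6644 and 4957 TPM at day 0. It fell by 2.77 on the log2 scale (adjusted p = 0.0145), and by 1.99, still called, without replicate 1 of WT at day 4. The call was lost with either offset and without replicate 1 of day 0.

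**Figure D3:**
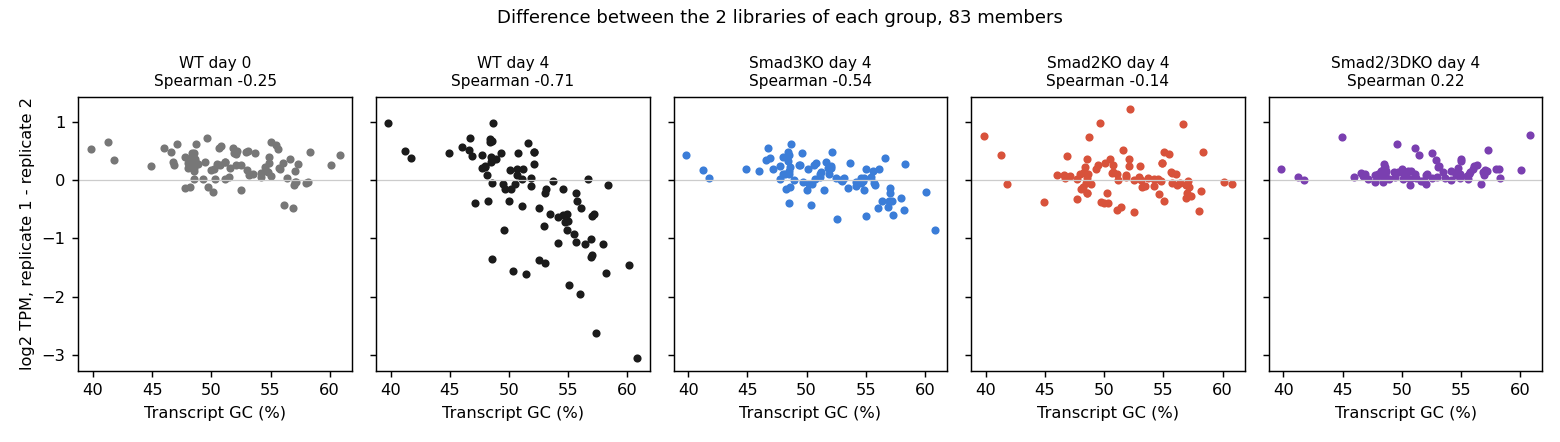
Difference in log2 TPM between replicate 1 and replicate 2 of each group against the GC content of the transcript, for the 83 members. WT at day 4 fell with GC (Spearman -0.71), down to -3.05 for Rpl36, while the double knockout stayed between -0.09 and 0.76.

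Within each submission every member was lower in WT embryoid bodies than in stem cells on scaled counts. The median difference was -1.97 in the first submission, which holds the GC-shifted library, and -1.03 in the second. In TPM the medians were -0.76 and -0.39, with 74 and 76 of 83 members lower. These differences between single libraries were not computed for other genes, so the counts do not set the members apart. With an offset for transcript length 18 members were called lower instead of 80 (median -0.42), and with length and GC together 16 (median -0.31). On log2(TPM + 1) with limma 42 were called lower, with a members' median of -0.60 and an all-gene median of 0.63. Of the 80 calls, 9 were made in the same direction under all 22 alternative settings: Rpl6, Rpl14, Rpl19, Rpl28, Rpl37a, Rpsa and the copies Rpl3l, Rpl10l and Rpl39l.

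Loss of Smad2 was compared with WT at day 4, a comparison that shares its WT libraries with the previous one. On counts 73 of 83 members were higher and none lower (median log2 fold change 1.30). Of all genes 35.5% were called, 15.4% higher and 20.1% lower, and their median was -0.01. Other genes under 1000 bases had a median of 0.82, with 941 of 2811 higher and 137 lower. The 10 members not called were Rpl5, Rpl7l1, Rpl12, Rpl22l1, Rpl27, Rpl36, Rpl39, Rplp0, Rps12 and Rps13.

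Rps15, a small-subunit protein that contacts the decoding site, stood at 7799 and 8002 TPM in the Smad2 knockout. In WT it stood at 1626 and 4439 TPM, so both knockout libraries were above both WT libraries. Its log2 fold change was 2.03 (SE 0.41, adjusted p = 0.00598, edgeR). Rps21, another member of the small subunit, gave 4124 and 6056 TPM against 1101 and 2859 TPM, again without overlap (1.96, adjusted p = 0.00733). Rpl3l was highest of the called members at 2.06 (adjusted p = 0.004), at 1.51 and 1.60 TPM against 0.55 and 0.77 TPM.

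Rpl13a had nearly the same level in both Smad2 knockout libraries, 9016 and 9376 TPM, close to the 9412 and 8219 TPM of the stem cells. Both lay above either WT day 4 library, which had 3498 and 4472 TPM. Its log2 fold change against WT was 1.85 (SE 0.30, adjusted p = 0.00254, edgeR). Rpsa, at 5920 and 6388 TPM against 2918 and 4362 TPM, was also higher (1.48, adjusted p = 0.0039). Of the stalk genes, Rplp1 (1.91, adjusted p = 0.0469) and Rplp2 (1.90, adjusted p = 0.031) passed, but the calls were lost under 14 and 5 of 22 alternatives. Rplp0 did not (0.94, adjusted p = 0.079). Rpl11 was higher by 1.27 (adjusted p = 0.00648) and Rpl5 by 0.53, which did not pass (adjusted p = 0.185).

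Rps27a, whose product is a fusion of ubiquitin with a small-subunit protein, was higher in TPM in both Smad2 knockout libraries than in any other library. It stood at 6192 and 6504 TPM in the Smad2 knockout and at 2862 to 4235 TPM in the other 8 libraries. Against WT the log2 fold change was 1.52 (SE 0.25, adjusted p = 0.00269, edgeR). Against the Smad3 knockout it was 1.69 (adjusted p = 0.00245). Against stem cells it was 0.53 (adjusted p = 0.15), which did not pass on counts. The 13 tested genes within 1 Mb of Rps27a had a median of -0.90 against WT and 7 of them were lower and 1 higher.

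Of the 6 copies 4 were called higher, with a median of 1.06, and of 7 listed parent genes (the parent of the pseudogene copy Rps4l included) 6, with a median of 1.05. Rpl39l was higher in the Smad2 knockout (41.6 and 54.05 TPM against 27.5 and 19.98 TPM, log2 fold change 1.65, adjusted p = 0.00362) but stayed below the stem cells. Rpl10l gave 14.0 and 19.98 TPM against 13.1 and 17.7 TPM, and its call on counts (0.84, adjusted p = 0.0442) was lost under 15 of 22 alternatives, with a value of 0.13 to 1.11. Rps27l was higher by 1.25 (adjusted p = 0.00625). Rpl22l1 (0.87, adjusted p = 0.129) and Rpl7l1 (0.06, adjusted p = 0.794) did not pass. In TPM Rpl7l1 was lower, at 79.4 and 65.2 against 120 and 107. Rpl36 had the largest difference of all members (2.08, adjusted p = 0.0572) without passing, and Rpl10 was higher by 0.72 (adjusted p = 0.0174).

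**Figure D4:**
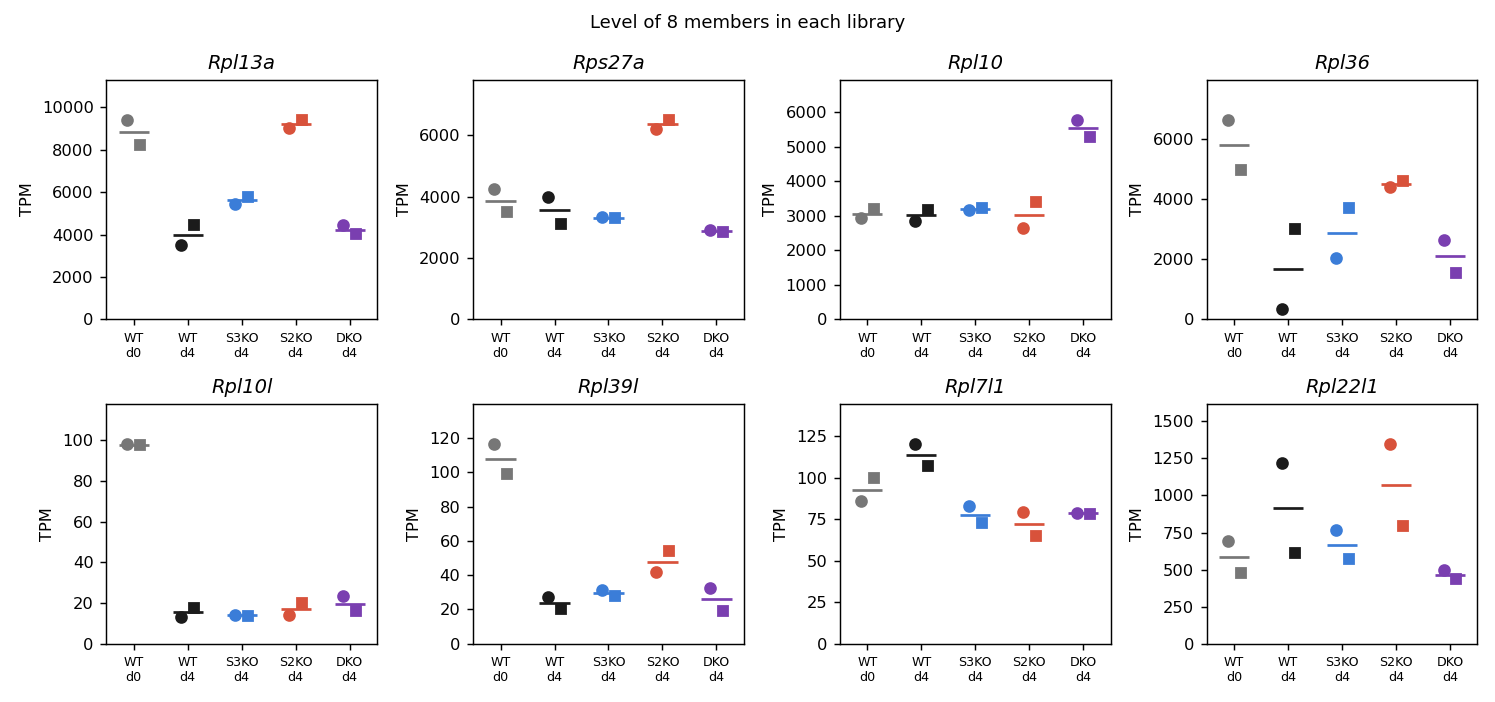
Level in TPM of 8 members in each library (circle replicate 1, square replicate 2, line the mean of 2), on axes from 0. Rps27a stood highest in the Smad2 knockout (6192 and 6504 TPM), Rpl13a in the Smad2 knockout and at day 0, Rpl10 in the double knockout (5779 and 5272 TPM), and Rpl10l and Rpl39l at day 0.

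Within the first submission the members' median difference between the Smad2 knockout and WT was 1.43 on scaled counts, and within the second, which does not hold the GC-shifted library, 1.16. All 83 members were above 0 in both. In TPM the medians were 0.69 and 0.45, with 75 and 77 members above 0. Here too no such counts were made over other genes. Cell type markers moved with the comparison: epiblast markers summed to 856 to 879 TPM in WT and 130 to 135 TPM in the Smad2 knockout, and endoderm markers to 210 to 228 TPM and 8.04 to 11.2 TPM. The 2 Smad2 knockout libraries themselves differed, with 3.17 and 67.0 TPM of streak markers and 76.7 and 164 TPM of naive markers as their lowest and highest sums. The part of these markers in the members' differences was not tested. With the length offset 11 members were called, and with length and GC 17, in place of 73. On log2(TPM + 1) 42 were called higher and 1, Rpl7l1, lower, beside an all-gene median of -0.51. Calls held in the same direction under all 22 alternatives for Rpl13a, Rpl3l, Rps14, Rps15 and Rpsa.

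The library pair labelled Smad3 knockout was compared with WT at day 4. None of the 83 was called (edgeR), 2 had an unadjusted p under 0.05, and DESeq2 called 1, Rpl7l1, lower. The median was 0.20, and 0.555% of all genes were called, 0.431% higher and 0.123% lower. Rpl7l1 had the lowest value (-0.63, adjusted p = 0.0932), at 82.8 and 72.8 TPM against 120 and 107 TPM. Rpl3l had the highest (1.03, adjusted p = 0.215). On counts 64 of 83 values were above 0, beside an all-gene median of -0.04. In TPM 32 members were higher and 1 lower without overlap of the groups. Within the first and second submission the members' median was 0.37 and 0.02 on scaled counts. In TPM it was 0.36 and 0.13, with 63 and 75 members above 0. The matching counts over all genes were not made, so these do not set the members apart. Without replicate 2 of WT, which leaves the GC-shifted library alone in that group, 18 members were called, 17 of them higher.

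In the double knockout 2 of 83 members were called against WT, where 23.1% of all genes were, 10.8% higher and 12.3% lower. The members' median was -0.09, and that of other short genes -0.06. Rpl7l1 was lower (-0.72, SE 0.15, adjusted p = 0.00757, edgeR), at 78.9 and 78.0 TPM against 120 and 107 TPM in WT. Without replicate 2 of WT 17 members were called, 12 higher and 5 lower, and without either double knockout library 0 were.

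Rpl10, which completes the large subunit late in its assembly, was the member called higher. It stood at 5779 and 5272 TPM in the double knockout and at 2638 to 3411 TPM in the other 8 libraries, with no overlap. Its log2 fold change on counts was 0.73 (SE 0.19, adjusted p = 0.0216, edgeR). Rpl10 lies on the X chromosome, and of the 46 tested genes within 1 Mb 33 were also higher and 1 lower, with a median of 1.17. The median over all 598 tested genes of the chromosome was -0.0028. The 6 named copies of Rpl10 held 7.97 and 11.1% of the combined counts in the double knockout and 10.6 to 21.5% elsewhere. What part the neighbourhood or the division of reads had in the value was not tested.

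Both members on chromosome 18, the chromosome of Smad2, leaned the same way. Rps14, a small-subunit protein linked to 5q- syndrome in humans, had 4067 and 3798 TPM in the double knockout and 1525 and 2757 TPM in WT, without overlap, but did not pass on counts (0.72, adjusted p = 0.104). Rpl17, of the large subunit, had 4269 and 3977 TPM against 2976 and 2237 TPM (0.50, adjusted p = 0.204). Genes within 1 Mb had a median of 0.67 around Rps14 and 0.33 around Rpl17, and all 390 tested genes of the chromosome 0.27. A link between gene and neighbours was not tested.

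The knockouts differed among themselves. Between the Smad2 and Smad3 knockouts 70 members were called, all higher in the Smad2 knockout, with a median of 1.09 and 33.6% of all genes called, 15.7% higher and 17.9% lower. Other genes under 1000 bases had a median of 0.80, and all genes -0.02. Rps27a (1.69), Rps21 (1.68, adjusted p = 0.0143) and Rps15 (1.54, adjusted p = 0.0178) had the largest called differences. This count fell to 9 and 13 without the first and second Smad3 knockout library, to 39 and 40 without either Smad2 knockout library, to 41 on library totals, to 7 on log2(TPM + 1) and to 2 with the length offset. Rps27a alone was called under all 22 alternatives.

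Between the double and the Smad2 knockout 75 members were lower in the double knockout, with a median of -1.37 and 39.6% of all genes called, 20.5% higher and 19.1% lower. Other genes under 1000 bases had a median of -0.90, and all genes -0.02. Rpl13a fell most (-2.13, SE 0.30, adjusted p = 0.00116, edgeR), from 9016 and 9376 TPM to 4429 and 4005 TPM. Rplp2 (-1.98, adjusted p = 0.0244) and Rpl22l1 (-1.98, adjusted p = 0.0066) followed. Rpl10 stood at 0.01 on counts (adjusted p = 0.959), but was called higher in TPM with either pseudocount, with the length offset and with length and GC, at up to 0.88. Without either double knockout library 48 and 39 were called, and with the length offset 15 lower and 1 higher. The calls of 12 members held under all alternatives, among them Rpl3, Rpl6, Rpl13, Rpl13a, Rps20, Rps23, Rps27a and Rpsa.

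The interaction asks whether loss of Smad2 had another effect in cells labelled as lacking Smad3 than in WT. It is the double knockout minus the Smad2 knockout minus the Smad3 knockout plus WT. On counts 62 members had a lower and none a higher value than additivity gives, with a median of -1.61 and 18.9% of all genes called, 11.3% higher and 7.52% lower. Other short genes had a median of -0.93. Rpl13a had the lowest value (-2.54, SE 0.41, adjusted p = 0.00732, edgeR), and Rpl41, the smallest ribosomal protein (-2.33, adjusted p = 0.0167), and Rps21 (-2.26, adjusted p = 0.0282) came next among those called. Rpl10 stood at 0.03 (adjusted p = 0.944), but was called higher in TPM with either pseudocount and with length and GC, and its value reached 0.90 with the length offset. The count fell to 2 without replicate 2 of the double or the Smad3 knockout, to 7 and 12 without their first replicates, to 23 without the first Smad2 knockout library, and to 3 with the length offset. Rpl13a alone was called under all 22 alternatives.

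Smad2 knockout embryoid bodies were last set against the stem cells. Only 3 members were called, all lower, where 21.9% of all genes were called, 12.6% higher and 9.27% lower. The members' median was -0.23, that of other genes under 1000 bases also -0.23, and that of all genes 0.03. Of the 83 values 67 were below 0, and the matching count over other genes was not made. The 3 called were the copies Rpl10l (-2.68, adjusted p = 0.000518, edgeR), Rpl39l (-1.44, adjusted p = 0.00803) and Rpl7l1 (-0.49, adjusted p = 0.0425). Rpl10l was called under all 22 alternatives, while Rpl39l lost its call under 2 and Rpl7l1 under 13. A call not made does not show equal levels. Within the first submission the members' median was -0.49 and within the second 0.13, so the sign of the median was not the same in both.

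Changes of single members within the set were tested by scaling each library to the members' own total, so that a change common to all drops out. The p-values were adjusted over all 19470 genes, not over the members alone. Where most genes were called on that scale, the limit on adjusted p was close to the same limit on unadjusted p. Some members can then pass by chance, and how many was not tested. From day 0 to WT day 4 the test on this scale called 10 members, where 66.9% of all genes were called. Higher than the set were Rpl5 (1.32, adjusted p = 0.00214), Rpl22l1 (1.27, adjusted p = 0.00745), Rpl7l1 (0.86, adjusted p = 0.0152) and Rpl7 (0.66, adjusted p = 0.0404). Lower than the set were 6, led by Rpl10l (-2.12, adjusted p = 2.08e-05), Rpl39l (-1.62, adjusted p = 0.0004), Rpl36 (-1.42, adjusted p = 0.0213) and Rpl3l (-1.35, adjusted p = 0.0185). Without replicate 1 of WT at day 4 the count was 2, Rpl10l and Rpl39l, and without replicate 2 it was 34.

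In the Smad2 knockout 4 members were called against the set (61.7% of all genes called on that scale, so the adjustment was mild here too). Rps15 (0.83, adjusted p = 0.0279) and Rpl13a (0.62, adjusted p = 0.0474) rose beyond it, and Rpl7l1 (-1.22, adjusted p = 0.00174) and Rpl5 (-0.78, adjusted p = 0.0495) stayed behind. None of these 4 was called with the length offset or with length and GC. Without replicate 2 of WT 26 were called. The double knockout gave Rpl10 (0.82, adjusted p = 0.0348) and Rps14 (0.85, adjusted p = 0.0355) above the set against WT (16.6% called), and both were lost with no filter on low counts.

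Against the Smad2 knockout (63.5% called) the double knockout had Rpl10 (1.38, adjusted p = 0.000203), Rps13 (1.05, adjusted p = 0.0156) and Rpl17 (0.87, adjusted p = 0.0142) above the set. Rpl13a (-0.77, adjusted p = 0.0156) was below it. Named copies of Rps13 held 56.4 and 67.7% of the combined counts in the double knockout and 74.05 and 86.6% in the Smad2 knockout. What part the division of reads had in the Rps13 value was not tested. For the interaction (54.7% called) Rpl10 (1.59, adjusted p = 0.00157), Rpl7l1 (1.42, adjusted p = 0.00824) and Rpl10l (1.10, adjusted p = 0.0466) were above and Rpl13a (-1.02, adjusted p = 0.0259) below. Of these interaction calls, those of Rpl10l and Rpl13a were each lost under 9 of 14 alternatives and that of Rpl7l1 under 3. Against stem cells (15.8% called) the Smad2 knockout had Rpl10l (-2.53, adjusted p = 4.43e-05) and Rpl39l (-1.27, adjusted p = 0.0138) below. No member differed from the set between the Smad3 knockout and WT (0.344% called), or between the Smad2 and Smad3 knockouts (53.5% called). Rpl10 was called under every alternative run on this scale in the double against the Smad2 knockout and in the interaction.

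**Figure D5:**
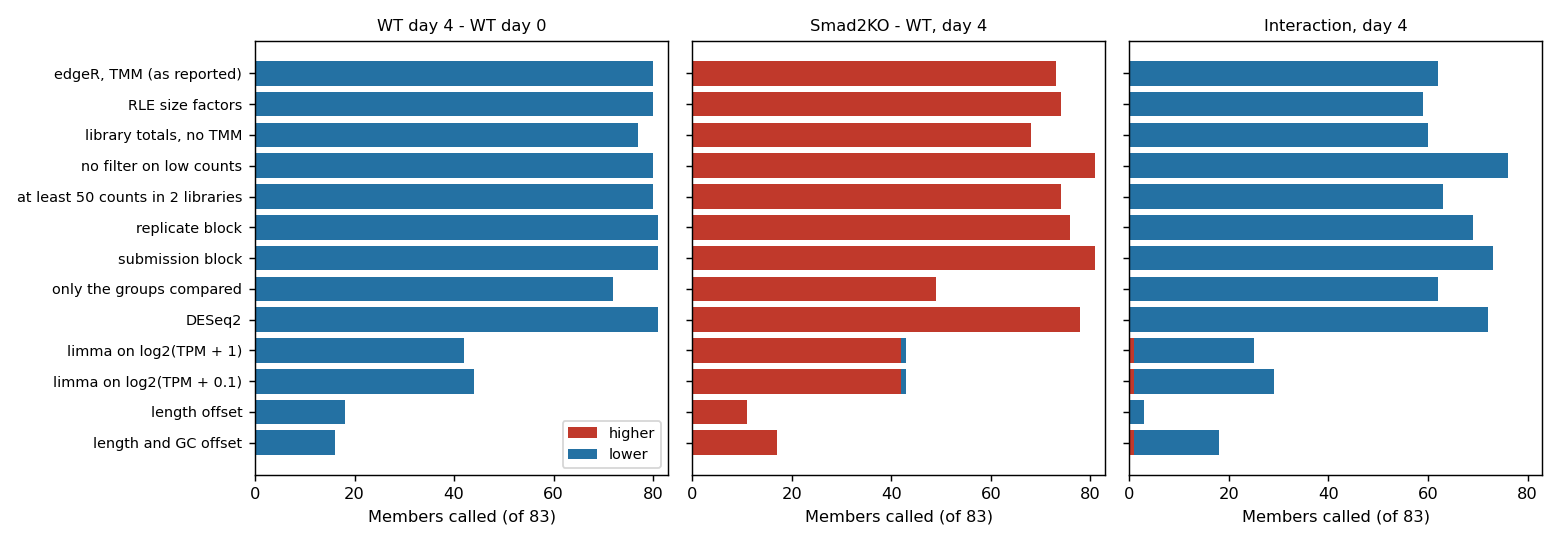
Number of the 83 members called higher or lower under each way of processing, for WT day 4 against day 0, the Smad2 knockout against WT and the interaction. Counts of 80, 73 and 62 as reported became 18, 11 and 3 with an offset for transcript length, while normalization, filter, tool and blocks moved them less.

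Genes that work with the ribosome were read from lists, beside the same all-gene shares as above. Of 15 further genes known for TOP mRNAs, 9 were lower in WT embryoid bodies than in stem cells (median -0.82) and 8 were above WT in Smad2 knockout embryoid bodies (0.67). They include Fau (-2.05 and 1.73), which encodes a ribosomal protein fused to a ubiquitin-like domain. Of 6 elongation factors and TCTP, 4 were lower and then 4 higher, led by Eef1d (-1.63 and 1.24), a nucleotide exchange factor of elongation factor 1. Of 9 snoRNA host genes, 5 were lower and 5 higher.

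Assembly and control genes were read in the same way. Among 30 ribosome biogenesis factors 17 were lower in WT embryoid bodies (median -0.71), but in the Smad2 knockout 5 were higher and 3 lower (0.15), and in the double knockout 13 were lower (-0.61). Nhp2, of the pseudouridylation complex, was among the largest in both (-1.90 and 1.22). Of 12 RNA polymerase I genes 4 were lower, and then 3 higher and 2 lower. Of 23 initiation factors 4 were higher and 12 lower, and then 8 higher and 2 lower. Of 13 genes of mTORC1 and LARP1, 4 were higher and 2 lower in WT embryoid bodies. In the Smad2 knockout 1 was higher and 5 lower. Larp1, the TOP mRNA binding repressor, was higher by 0.88 in the first comparison and lower in the second (-0.72, adjusted p = 0.0212). Of 6 MYC family genes 3 were higher and then 3 lower. Myc itself passed in neither.

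Lists outside the cytosolic ribosome were read in the same comparisons. Of 78 mitochondrial ribosomal protein genes 68 were lower in WT embryoid bodies (median -1.16) and 47 higher in the Smad2 knockout (0.78). Of 75 tested respiratory chain genes 71 were lower (-1.69) and 60 higher (1.07), and of 14 proteasome core genes 13 and 10. Replication-dependent histone mRNAs, which lack a poly(A) tail, were lower for 14 of 17 (-3.09) and higher for 11 (2.01). The part of these lists in the members' differences was not tested. The lists differed in median transcript length. It was 673 bases for respiratory chain, 743 for histone, 975 for mitochondrial ribosomal and 1018 for proteasome genes. For snoRNA hosts, elongation factors with TCTP and the other TOP mRNAs it was 687, 1266.5 and 1423 bases. For biogenesis, initiation and RNA polymerase I genes it was 2131, 2340 and 2486 bases. The MYC family had 2919.5 and mTORC1 with LARP1 3743 bases. What part length had in the counts of these lists was not tested.

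Outside the members, the genes whose log2 TPM followed the members' summed TPM most closely over the 10 libraries were Uqcc2, a complex III assembly factor (Pearson 0.976), the processed pseudogene Gm11478 (0.975), Tmem256 (0.97), the splicing protein gene Snrpd2 (0.958) and Atp5e, of ATP synthase (0.953). They were taken from 1204 genes with a mean of at least 100 TPM, and all share the libraries' depth. Transcript lengths were 430 to 599 bases for 4 of them and 1417 bases for Snrpd2.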

How the data were processed

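RNA was measured in 10 libraries of the 24 samples of the series, and the 14 ChIP samples were not analysed here. For each library the authors deposited expected counts, TPM and FPKM per gene in RSEM gene results, of which FPKM had no use here. Without role or order, mm10, HOMER, STAR, Bowtie2, RSEM and FastQC 0.11.5 are listed in the submitters' processing notes. The annotation version and the strand setting are not given in the sources used here. Gene IDs were matched to GENCODE M21 for 53274 of 53379 genes, 50604 with the same version, for symbols, types and GC content.

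Expected counts were rounded to whole numbers, filtered with filterByExpr, scaled with TMM and tested with edgeR 4.0.16 (quasi-likelihood, Benjamini-Hochberg over 19470 genes, threshold 0.05) in 1 fit of all 5 groups, with 5 residual degrees of freedom and a common biological coefficient of variation of 0.248. A second fit was scaled to the members' summed counts. Group differences in shares were given without a test. Alternatives were other scalings, filters and blocks, DESeq2 1.42.0, limma 3.58.1 on log2(TPM + 1) and log2(TPM + 0.1) over 14328 genes, an offset for transcript length by lowess (span 0.3), and leaving out each library. The offset for length with GC was added after seeing the data. Other tools were R 4.3.3, python 3.11.15, pandas 2.3.3 and numpy 2.4.6.

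On counts simulated for the Smad2 knockout against WT with 200 changed of 19470 genes, the test called 7% of 2-fold and 82% of 4-fold changes, with 0 wrong signs and 7 false calls. The members and lists were chosen with earlier results of these data known. Members named with values were the 3 highest and the lowest in mean TPM, the stalk, Rpsa, Rpl5 and Rpl11, the copies with their parents, and the largest called changes of each comparison. Other members named, such as Rpl36, Rps14 and Rpl17, were singled out after their values were seen. The copy Rps4l, a pseudogene in M21, is no member. Sequence windows were centred on the pyrimidine run in place of the start, and no proteins are shown. Some genes are not reported here by name. Replicate numbers follow the 2 series of file names except in the double knockout, whose libraries are both of the first.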

Additional observations from a re-analysis of the deposited data

Results flagged for a closer look

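On counts, the effect of Smad2 loss differed between cells labelled WT and cells labelled Smad3 knockout. The test was that of the interaction itself (edgeR quasi-likelihood, Benjamini-Hochberg adjusted). It called 62 of the 83 members, all lower, where 7.52% of all genes were called lower. The log2 interaction was -2.54 for Rpl13a, -2.33 for Rpl41 and -2.26 for Rps21. The count ran from 2 to 66 when 1 library was left out, and Smad3 counts did not set the library pair labelled Smad3 knockout apart from WT. With the submission as a block all 62 calls were kept, with the double knockout present only in the first submission. With the length offset 3 members were called. Other genes under 1000 bases had a median interaction of -0.93, and the members' values fell with GC content (Spearman -0.52). No group was large enough for a search for single outlying libraries.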

How the results depend on the processing

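The limits are 2 libraries a group, 1 line per knockout, a WT day 4 library with a GC shift, and a length dependence shared with other short genes. For members called the settings gave, against the reported 80, 73, 0, 2, 70, 75, 3 and 62 in the order of day 4 WT against day 0, Smad2 knockout against WT, Smad3 knockout against WT, double knockout against WT, Smad2 against Smad3 knockout, double against Smad2 knockout, Smad2 knockout against day 0 and interaction, these values where they moved by over 1.5 times. On log2(TPM + 1) the counts of 80, 73, 70, 75 and 62 became 42, 43, 7, 30 and 25, and on log2(TPM + 0.1) they became 44, 43, 7, 31 and 29. With the length offset these became 18, 11, 2, 16 and 3, and with length and GC 16, 17, 12, 34 and 18. The Smad3 knockout gave 1 with DESeq2 and 1 with length and GC. The double knockout against WT gave 6 without a filter, 7 with the submission as a block, 0 with only the groups compared, 4 with DESeq2 and 6 with length and GC. The Smad2 against the Smad3 knockout gave 41 on library totals. The Smad2 knockout against day 0 gave 6 without a filter, 5 with the submission block, 6 with the length offset and 8 with length and GC, of which 5 were higher. On the members' own scale the length offset gave 7 for WT day 4 against day 0, 4 of them higher, and 1 for the Smad2 knockout against WT, in place of 10 and 4.

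Leaving out 1 library gave 63 to 81, 53 to 75, 0 to 18, 0 to 17, 9 to 81, 39 to 79, 1 to 4 and 2 to 66 members called in the same order, and 2 to 34 and 1 to 26 on the members' own scale. Share differences ran from -10.13 to -5.80, 6.65 to 8.05, 0.982 to 2.38 and -0.659 to 0.737 points for the first 4. In TPM they were 10.3 points for the Smad2 knockout, 3.76 for the Smad3 knockout and 0.935 for the double knockout, and in counts, over a wider gene set that takes in the pseudogene copies, 8.155 for the Smad2 knockout. Library totals moved the all-gene median from 0.10 to 0.38 for WT day 4 against day 0.

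Replicate numbers were not treated as pairs. Over 10 pairs of groups the correlation of replicate 1 deviations ran from -0.18 to 0.51, with a median of 0.12. Pairs with the double knockout are included, although both its libraries are of the first submission. These values therefore do not decide whether replicate numbers pair the other libraries. With the replicate block 81, 76, 0, 3, 69, 75, 3 and 69 members were called, and 11 and 4 on the members' own scale.

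Log2 values of these members changed sign, and the cause was not tested. For WT day 4 against day 0, Rpl5 was 0.12 on library totals, 0.40 and 0.40 in TPM with either pseudocount, 0.42 with length, 0.019 with length and GC, 0.24 without day 0 replicate 1 and 0.14 without WT replicate 2, from -0.63 without WT replicate 1. Rpl22l1 was 0.0474, 0.58, 0.58, 1.06, 0.43, 0.28 and 0.16 in the same order, from -0.89 without WT replicate 1. Rpl7l1 was 0.29 and 0.30 in TPM, and on the members' own scale -0.33 with length and -0.49 with length and GC. Rpl7 was 0.12 and 0.12 in TPM and 0.0107 with length. With length Rps27l was 0.039 and Rpl22 0.0492. With length and then with length and GC, Rpl39 was 0.22 and 0.0609, and Rpl10 0.13 and 0.0484. For the Smad2 knockout against WT, Rpl5 was -0.0728 and -0.0731 in TPM, and Rpl7l1 -0.13 on totals, -0.65 and -0.66 in TPM and -0.0078 without Smad2 knockout replicate 1, up to 0.15 without WT replicate 1. Rpl22l1 was -0.036 with length, and Rpl10 -0.0022 and -0.0022 in TPM and -0.0742 with length. For the double against the Smad2 knockout Rpl10 was -0.0006 with the submission block, -0.10 without Smad2 knockout replicate 1 and -0.0512 without double knockout replicate 1. It was called higher, at up to 0.88, in TPM and with both offsets. In the interaction it was -0.0049 without WT replicate 2, -0.0826 without Smad2 knockout replicate 1, 0.15 without its replicate 2 and -0.0282 without double knockout replicate 1, and it was called higher in TPM and with length and GC, with values up to 0.90 over all alternatives.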
